A study of Mus musculus with 12 samples.

Results

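The complement components and regulators described here are 8 genes: *C3*, *C1s*, *C1ra*, *C4b*, *Cfb*, *Serping1*, *Cd55* and *Cd59a*. They were found as rows of a count table of 39179 genes, measured in pancreatic stellate cells (PSCs), the fibroblast-like cells of the pancreas that give rise to part of the tumour stroma. The 8 were chosen from the levels of these same libraries, so their levels and changes are given as a description and carry no test. A list of 53 complement genes that holds them gave 45 others, which were listed by their place in the pathway, with earlier results of these data known.

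All PSCs were of 1 SV40-immortalised mouse clone that expressed mCherry, with the strain labelled C57BL/6, and were cultured for 72 h before they were sorted on mCherry. mono-PSCs grew alone. 2W-PSCs grew with PCCs, an EGFP-expressing mouse pancreatic cancer line kept in doxycycline. 3W-PSCs grew with PCCs and with MØs, TagBFP-expressing RAW264.7 macrophage-like mouse cells. There were 4 libraries of 3′ ends per culture, 12 in all, with 4561817 to 8093368 counts each. Levels are CPM, each library's counts scaled to a common total after TMM normalisation, and since such libraries yield about one fragment per transcript the values were not divided by length. The design calls the 4 libraries biological replicates, which here are cultures of 1 clone, and the errors and p-values measure the spread between such cultures.

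Complement is a protease cascade of the blood and tissues. The classical pathway starts when C1q binds a target and activates the proteases C1r and C1s, which cleave C4 and C2 to form a convertase. The lectin pathway reaches the same convertase through mannose-binding lectins and MASP proteases, and the alternative pathway amplifies C3 cleavage through factor B and factor D. All of them meet at C3, whose fragments mark surfaces for uptake and recruit leukocytes, while inhibitors such as C1 inhibitor in plasma and DAF and CD59 on membranes limit the cascade. Most plasma complement is made by the liver, and fibroblasts and macrophages are known to make several components locally.

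The sequences just upstream of the members are shown first, because *C3*, *C1s* and *C1ra* carried most of the members' counts in 3W-PSCs, and *Cd59a* is shown beside them as a membrane regulator. RefSeq promoters on GRCm38.p6, from 250 bases before to 50 after the transcription start, were given for 5 of the 8 members (*C3*, *C1s*, *C1ra*, *Cd55* and *Cd59a*), and *C1s* has 2 starts, of which the first listed is printed. Capitals mark the letters of 4 motifs searched on both strands. These were STAT (TTCNNNGAA), C/EBP (TTNNGNAA), IRF (GAAANNGAA) and the κB consensus of NFκB.
C3, chr17:57228087-57228386, minus strand: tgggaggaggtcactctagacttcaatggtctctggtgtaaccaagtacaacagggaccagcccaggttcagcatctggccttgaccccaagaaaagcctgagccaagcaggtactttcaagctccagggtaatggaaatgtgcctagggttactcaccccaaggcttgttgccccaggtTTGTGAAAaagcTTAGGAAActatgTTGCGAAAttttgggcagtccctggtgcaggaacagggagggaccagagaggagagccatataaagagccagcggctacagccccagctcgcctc
C1s, chr6:124542310-124542609, minus strand: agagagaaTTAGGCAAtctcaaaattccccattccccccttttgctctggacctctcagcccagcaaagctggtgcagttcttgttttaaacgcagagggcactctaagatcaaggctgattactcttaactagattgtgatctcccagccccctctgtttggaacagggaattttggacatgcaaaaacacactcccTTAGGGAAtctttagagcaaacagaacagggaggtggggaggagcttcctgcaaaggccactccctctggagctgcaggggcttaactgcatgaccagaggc
C1ra, chr6:124512371-124512670, plus strand: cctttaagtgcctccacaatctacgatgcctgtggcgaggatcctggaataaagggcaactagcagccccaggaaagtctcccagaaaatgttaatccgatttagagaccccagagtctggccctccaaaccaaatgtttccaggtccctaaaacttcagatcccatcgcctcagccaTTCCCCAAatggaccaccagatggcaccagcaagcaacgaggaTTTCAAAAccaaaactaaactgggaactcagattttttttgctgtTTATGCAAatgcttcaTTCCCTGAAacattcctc
Cd59a, chr2:104095551-104095850, plus strand: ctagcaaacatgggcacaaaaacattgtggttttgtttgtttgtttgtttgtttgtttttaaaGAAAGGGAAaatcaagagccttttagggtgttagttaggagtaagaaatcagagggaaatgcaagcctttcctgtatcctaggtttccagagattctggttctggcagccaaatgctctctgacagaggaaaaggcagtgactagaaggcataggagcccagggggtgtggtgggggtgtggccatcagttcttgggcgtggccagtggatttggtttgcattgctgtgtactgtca

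The *C3* promoter held 3 matches to the C/EBP letters, 70 to 63, 58 to 51 and 45 to 38 bases before the start. Of the 32851 promoters of the table, 40.7% held at least 1 such match and 3.60% held 3 or more. *C1s* held 2 C/EBP matches. *C1ra* held 3, together with the only STAT match among the 5 members with a promoter entry, 32 to 40 bases after the start. *Cd59a* held 1 IRF match, and *Cd55* held none of the 4 motifs. No match of one motif overlapped another in these windows, and no κB match was found in them. STAT letters were in 8.30%, IRF letters in 8.56% and the κB consensus in 8.46% of all promoters. A match describes letters only.

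The sorted cells carried fibroblast transcripts at high levels, with 12 markers summing to 7752 to 20189 CPM per library. Of these markers, *Des*, the desmin gene and a marker of stellate cells, had only 105 counts in all and *Lum* had 32. The 10 epithelial markers summed to 0.484 to 2.46 CPM in mono-PSCs. They summed to 75.8 to 149 CPM in 2W-PSCs and 52.4 to 90.9 CPM in 3W-PSCs. Most of their counts were of *Krt18*, *Krt19*, *Krt7* and *Cdh1*, with 1628, 873, 847 and 832 in all. *Cldn4* was at 0 in every library, and *Epcam*, *Cldn7* and *Elf3* had 6, 3 and 25 counts in all. The 15 macrophage markers summed to 2.28 to 8.62, 3.38 to 11.5 and 12.7 to 57.7 CPM. Of these 15 markers 8 were at 0 in mono-PSCs and in 2W-PSCs, and in 3W-PSCs 14 had counts, while *Adgre1*, which encodes F4/80, stayed at 0. 3W-PSC replicate 4 held the highest macrophage sum. 2W-PSC replicate 2 stood apart from its group, with rank correlations of 0.858 to 0.920 to the other 2W-PSC libraries. In bulk libraries, fewer cells of a type and less RNA per cell cannot be told apart.

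*C3* (chr17:57203970-57228136, minus strand, on GRCm38 as are all gene positions here) encodes the central component of the cascade. Its level was 0.351, 1.18, 0.355 and 0.605 CPM in mono-PSCs, 0.422, 0.245, 0.159 and 1.12 CPM across 2W-PSCs, and 180.5, 179, 157 and 226 CPM in 3W-PSCs. The lowest 3W-PSC library lay far above the highest of the other 8, while mono-PSCs and 2W-PSCs overlapped. In counts these were 15 reads over the 4 mono-PSC libraries, 12 over the 2W-PSC libraries and 5882 over the 3W-PSC libraries. The fitted log2 fold change was 8.48 (SE 0.366) in 3W-PSCs against 2W-PSCs and 8.21 (SE 0.277) against mono-PSCs. Among 3W-PSC libraries replicate 4 had both the highest *C3* and the highest macrophage markers, and replicate 2, with the lowest macrophage markers, had 179 CPM of *C3*. Without 3W-PSC replicate 4 the log2 fold changes were 8.37 and 8.099. Summed macrophage markers outside the complement list reached 11.5 to 47.9 CPM in 3W-PSCs. Such a sum sets no limit on another gene, and the part of macrophage RNA in the *C3* level was not tested.

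**Figure D1:**
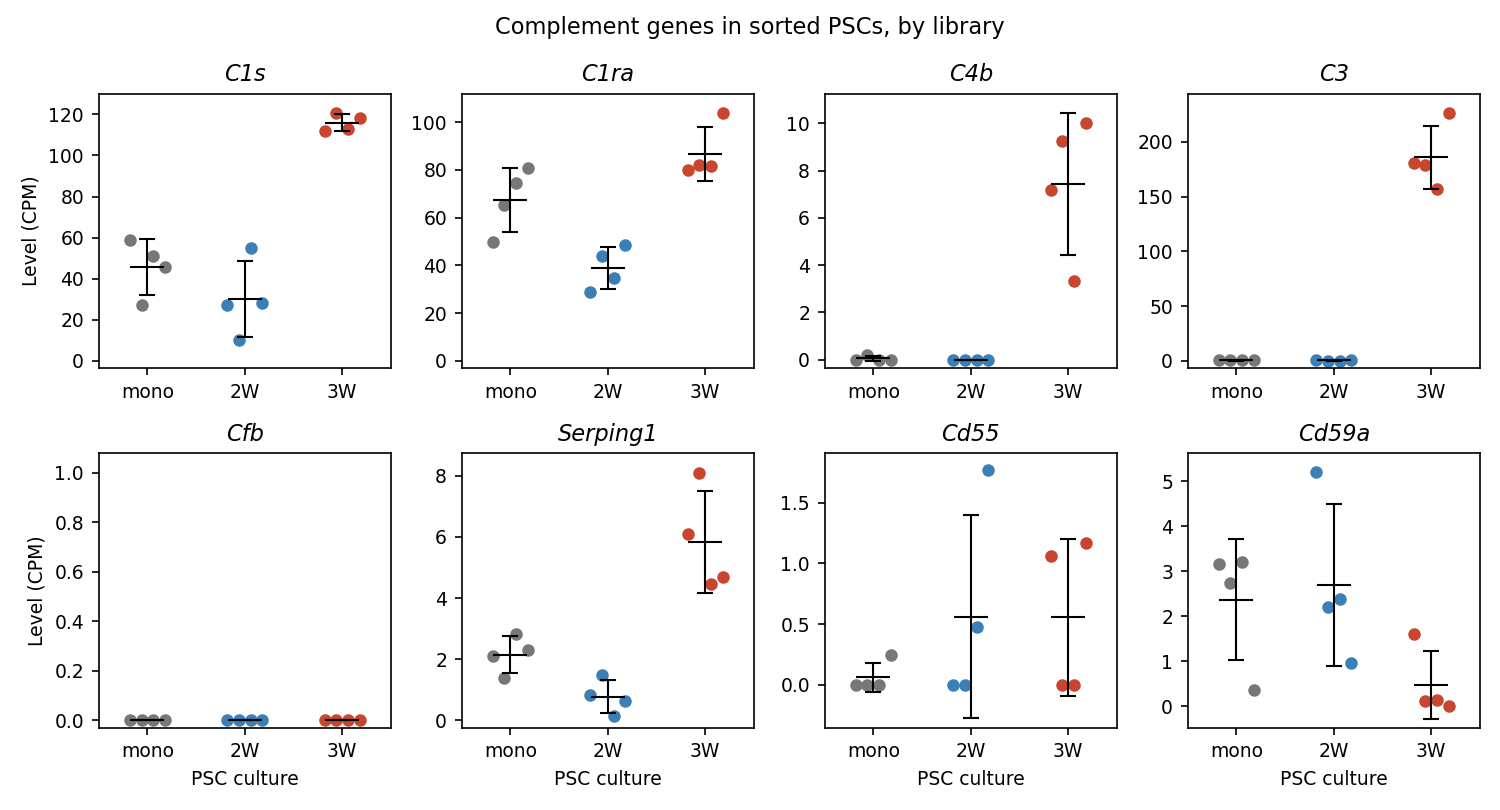
Level of each of the 8 complement genes (CPM, linear axes that differ between panels) in every library of mono-, 2W- and 3W-PSCs, with the mean and SD of 4 libraries as black bars. *C3* and *C4b* were near 0 outside 3W-PSCs, *C1ra* was lowest in 2W-PSCs, and *Cfb* was at 0 in all 12 libraries.

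*C4b* (chr17:34728380-34743882, minus strand) encodes C4, the first substrate of C1s. It had 54, 80, 26 and 77 counts in the 3W-PSC libraries, or 7.17, 9.25, 3.31 and 10.003 CPM, a single count in mono-PSC replicate 2, and no count in any 2W-PSC library. All 3W-PSC libraries lay above all others. The highest was replicate 4, which also held the highest macrophage marker sum, and the part of that in its *C4b* level was not tested. Against 3 counts per library, *C4b* was at least 14.0-fold higher in 3W-PSCs relative to 2W-PSCs, and against mono-PSCs the ratio of 237 to 1 counts was 184, with a 95% interval from counting error alone of 32.8 to 7318. Its neighbour and near-copy *C4a* had 15 counts in all, and 14.6% of the 75-base windows in the last 500 bases of *C4b* transcripts also occur in *C4a*, so that reads from those windows may be split or lost.

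*C1s* (chr6:124530345-124542359, minus strand, *C1s1* in newer annotations) and *C1ra* (chr6:124512405-124523443, plus strand) are neighbours that encode the paired proteases of the C1 complex. *C1s* measured 59.0, 27.03, 51.0 and 45.6 CPM in mono-PSCs, 27.3, 10.1, 54.9 and 27.9 CPM across 2W-PSCs, and 112, 121, 113 and 118 CPM in 3W-PSCs. The 3W-PSC libraries differed little among themselves and did not overlap the rest, and mono-PSCs and 2W-PSCs overlapped. The log2 fold change of *C1s* was 1.94 (SE 0.369) against 2W-PSCs and 1.34 (SE 0.194) against mono-PSCs. In 2W-PSCs against mono-PSCs it was -0.58 (SE 0.402).

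*C1ra* was already expressed without other cells, at 49.7, 65.4, 74.4 and 80.6 CPM in mono-PSCs. It measured 29.001, 43.9, 34.5 and 48.5 CPM across 2W-PSCs and 79.8, 81.9, 81.7 and 104 CPM in 3W-PSCs. Unlike *C1s*, it was lower in every 2W-PSC library than in every mono-PSC library, with a log2 fold change of -0.78 (SE 0.229). The highest 2W-PSC library, at 48.5 CPM, lay just below the lowest mono-PSC library, at 49.7 CPM. In 3W-PSCs its log2 fold change was 1.16 (SE 0.197) against 2W-PSCs without overlap, and 0.35 (SE 0.170) against mono-PSCs with overlap. The order of its mean levels was thus 2W-PSCs, mono-PSCs, 3W-PSCs. Fitting each comparison alone, edgeR called only that of 3W-PSCs against 2W-PSCs. As *C1ra* was chosen from these libraries, the calls are given as a description, and the lack of one does not show equal levels. The count ratio of *C1s* to *C1ra* ranged from 0.413 to 1.19 for mono-PSCs and from 0.229 to 1.59 for 2W-PSCs, and narrowed to 1.14 to 1.47 for 3W-PSCs. The ratio was lowest in 2W-PSC replicate 2, the library that stood apart.

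The near-copies of these proteases added few reads. *C1s2* had 1 count in mono-PSCs, none in 2W-PSCs and 26 in 3W-PSCs, and *C1rb* had 1 count in all. Windows of 75 bases near the 3′ end were shared with them for 14.9% of *C1s* and 14.3% of *C1ra*. The antisense gene *Gm16567*, which overlaps 576 exonic bases of *C1s* outside its last 500 transcript bases, had no count.

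*Serping1* (chr2:84765387-84775444, minus strand) encodes C1 inhibitor, the plasma serpin that inactivates C1r and C1s. It measured 2.11, 1.37, 2.84 and 2.30 CPM in mono-PSCs, 0.845, 1.47, 0.159 and 0.642 CPM across 2W-PSCs, and 6.11, 8.096, 4.45 and 4.68 CPM in 3W-PSCs. The 3W-PSC libraries were the highest, and 2W-PSC replicate 2 overlapped mono-PSC replicate 2. The log2 fold change was 2.95 (SE 0.542) against 2W-PSCs and 1.42 (SE 0.394) against mono-PSCs. Without 3W-PSC replicate 2, its highest library, the second value was 1.22. Per 100 counts of *C1ra* and *C1s* together there were 1.48 to 2.27 counts of *Serping1* for mono-PSCs, 0.178 to 2.73 for 2W-PSCs and 2.11 to 4.00 for 3W-PSCs, ranges that overlapped.

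The membrane inhibitors among the members were sparse. *Cd59a* (chr2:104095801-104115354, plus strand) encodes CD59, which blocks the membrane attack complex. It had 18, 14, 18 and 3 counts in mono-PSCs, 37, 9, 15 and 6 in 2W-PSCs and 12, 1, 1 and 0 in 3W-PSCs. In 3W-PSCs replicates 2 to 4 were at or near 0 while replicate 1 held 1.59 CPM, within the range of the other cultures. The log2 fold change was -2.55 (SE 0.932) against 2W-PSCs and -2.33 (SE 0.884) against mono-PSCs with all libraries, and -4.76 and -4.55 without 3W-PSC replicate 1. In 2W-PSCs against mono-PSCs it was 0.23 (SE 0.688). Its paralogue *Cd59b* had 9 counts in all.

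*Cd55* (chr1:130439027-130462744, minus strand) encodes DAF, which takes the C3 convertases apart. It had 2 counts in 1 mono-PSC library, 3 and 11 counts in 2 of the 2W-PSC libraries, and 8 and 9 counts in 2 of the 3W-PSC libraries, with 0 in the other 7. It did not pass the filter on low counts. The ratio to mono-PSCs was 7.30 for 2W-PSCs (95% interval from counting error 1.68 to 66.2) and 6.62 for 3W-PSCs (1.57 to 59.0), but each rests on 2 counts in mono-PSCs and on 2 libraries of each co-culture, and the cultures overlapped at 0. *Cd55b* had no count.

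*Cfb* (chr17:34856374-34862518, minus strand) encodes factor B, the protease of the alternative pathway C3 convertase. It was listed at 0 in all 12 libraries. The annotated gene *Gm20547*, which runs on the same strand through *Cfb* into *C2*, shares 79.5% of the exonic bases of *Cfb* and 92.4% of its last 500, and was also at 0 in every library. If the counting dropped reads that fit both genes, the 0 does not measure *Cfb*, and the settings for such reads are not given in the sources used here. The neighbour *C2*, which encodes the protease that pairs with C4, had 7, 8 and 32 counts in mono-, 2W- and 3W-PSCs, with 20 of the 32 in 3W-PSC replicate 4.

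Of the 8 members, 6 had enough counts to be fitted in 3W-PSCs against either culture. Against 2W-PSCs, 5 of these 6 were called higher by edgeR (*C3*, *C4b*, *C1s*, *C1ra* and *Serping1*) and none lower, beside 5.73% of 11513 genes called higher and 4.95% called lower. Against mono-PSCs, 4 were called higher (*C3*, *C4b*, *C1s* and *Serping1*) and none lower, beside 13.4% of 11551 genes called higher and 13% lower. In 2W-PSCs against mono-PSCs, 3 members were fitted and none was called by edgeR, 1 having an unadjusted p under 0.05 and DESeq2 calling none, beside 0.839% of 11199 genes called higher and 0.152% lower. The median log2 fold change of the fitted members was 2.45, 1.38 and -0.58 in the 3 comparisons, against 0.0025, 0.0116 and 0.0195 over all genes tested. The last median lacks *C3*, *C4b* and *Serping1*, which passed the filter only in the comparisons that held 3W-PSCs, where they were high. Without 2W-PSC replicate 2 the same 5 members were called higher against 2W-PSCs, and the fitted log2 values became 8.33 (*C3*), 1.66 (*C1s*), 1.22 (*C1ra*) and 3.36 (*Serping1*). Without 3W-PSC replicate 4, where macrophage markers were highest, 5 and 4 members were called against 2W- and mono-PSCs. These counts follow from how the members were chosen and, for *C3*, *C4b* and *Serping1*, from a filter passed through their 3W-PSC counts. The comparisons also share their libraries.

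**Figure D2:**
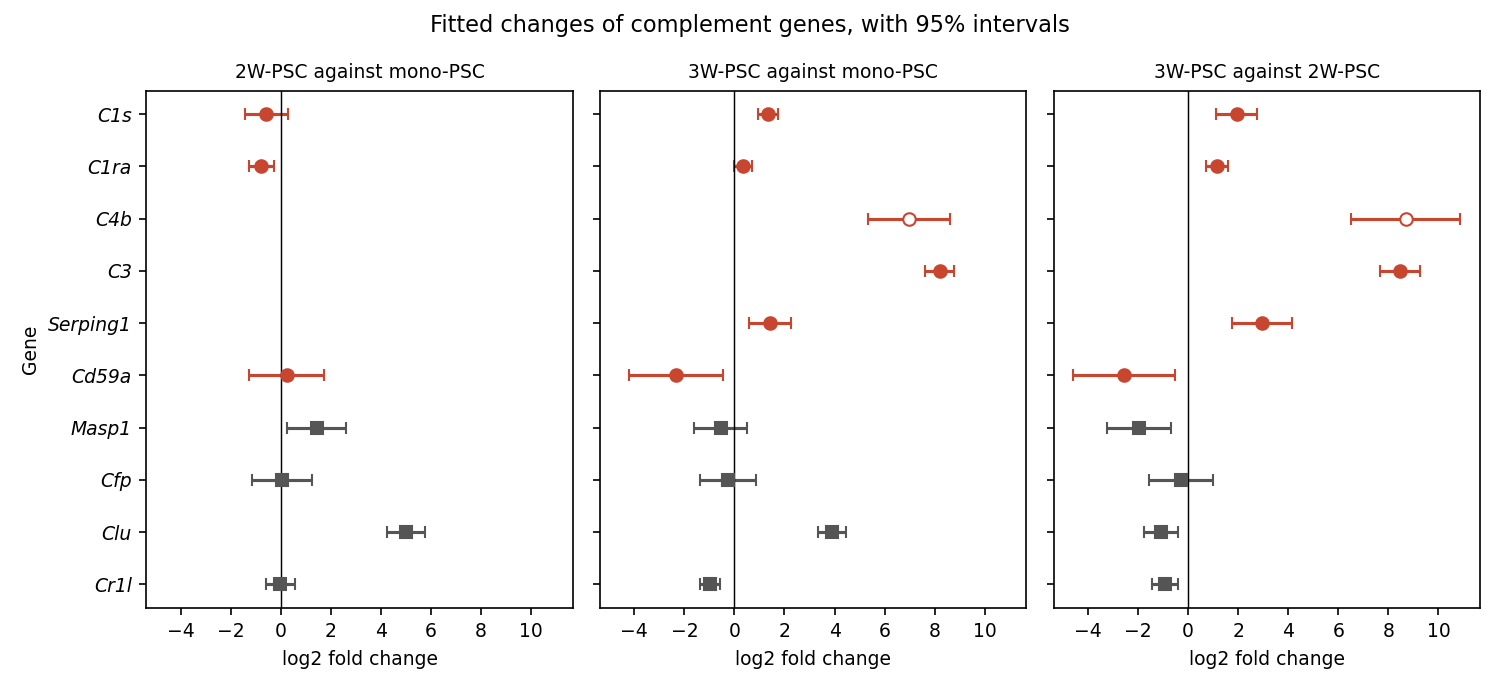
Fitted log2 fold changes of complement genes with 95% intervals in the 3 comparisons of cultures, for the members (red circles) and 4 other complement genes that passed the filter (grey squares). The open circles of *C4b* rest on 1 or 0 counts in the culture compared against. *C3* lay above 8 in both comparisons of 3W-PSCs, and *Clu* was the highest in 2W-PSCs against mono-PSCs at 4.99.

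The rest of the cascade was mostly at or near 0 counts. Of the 45 other complement genes, 18 had no count in any library, 23 had at most 3 counts in every library, and 5 passed the filter, among them *Clu*, *Cr1l*, *Masp1* and *Cfp*. Of the terminal components of the membrane attack complex, *C6*, *C7*, *C8a*, *C8b* and *C9* had no count, *Hc*, which encodes C5, had 2, and *C8g* had 61. *Cfd*, which encodes factor D, was also at 0. *C1qa*, *C1qb* and *C1qc*, the C1q chains typical of macrophages, had 14, 14 and 15 counts, all in 3W-PSCs, of which 13, 11 and 14 were in replicate 4. Of the receptors, *C3ar1*, for the C3a fragment, had 8 counts in mono-PSCs, 12 in 2W-PSCs and 86 in 3W-PSCs, with 46 of the 86 in replicate 4.

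*Clu* encodes clusterin, a secreted chaperone that also inhibits assembly of the membrane attack complex. It measured 2.28, 3.72, 4.44 and 3.39 CPM in mono-PSCs, 77.3, 122, 68.9 and 170 CPM across 2W-PSCs, and 54.3, 38.5, 41.7 and 73.3 CPM in 3W-PSCs. Every co-culture library lay above every mono-PSC library. *Clu* rose by 4.99 on the log2 scale (SE 0.355, edgeR's quasi-likelihood test, adjusted p = 1.12e-05) in 2W-PSCs and by 3.90 (SE 0.270, adjusted p = 1.60e-08) in 3W-PSCs against mono-PSCs, and was lower in 3W-PSCs relative to 2W-PSCs by the edgeR test (log2 fold change -1.07, SE 0.304, adjusted p = 0.0454). That last call was lost without 3W-PSC replicate 1, 2 or 3 or without 2W-PSC replicate 4, with adjusted p over all 14 alternatives from 0.00914 to 0.150. Epithelial markers were highest where *Clu* was highest, at 149 CPM in 2W-PSC replicate 4 and, within 3W-PSCs, at 90.9 CPM in replicate 4. The order was not kept throughout, as 2W-PSC replicate 2 had more *Clu* than replicate 1 (122 against 77.3 CPM) with a lower marker sum (82.4 against 104 CPM). Their part in the *Clu* level was not tested.

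**Figure D3:**
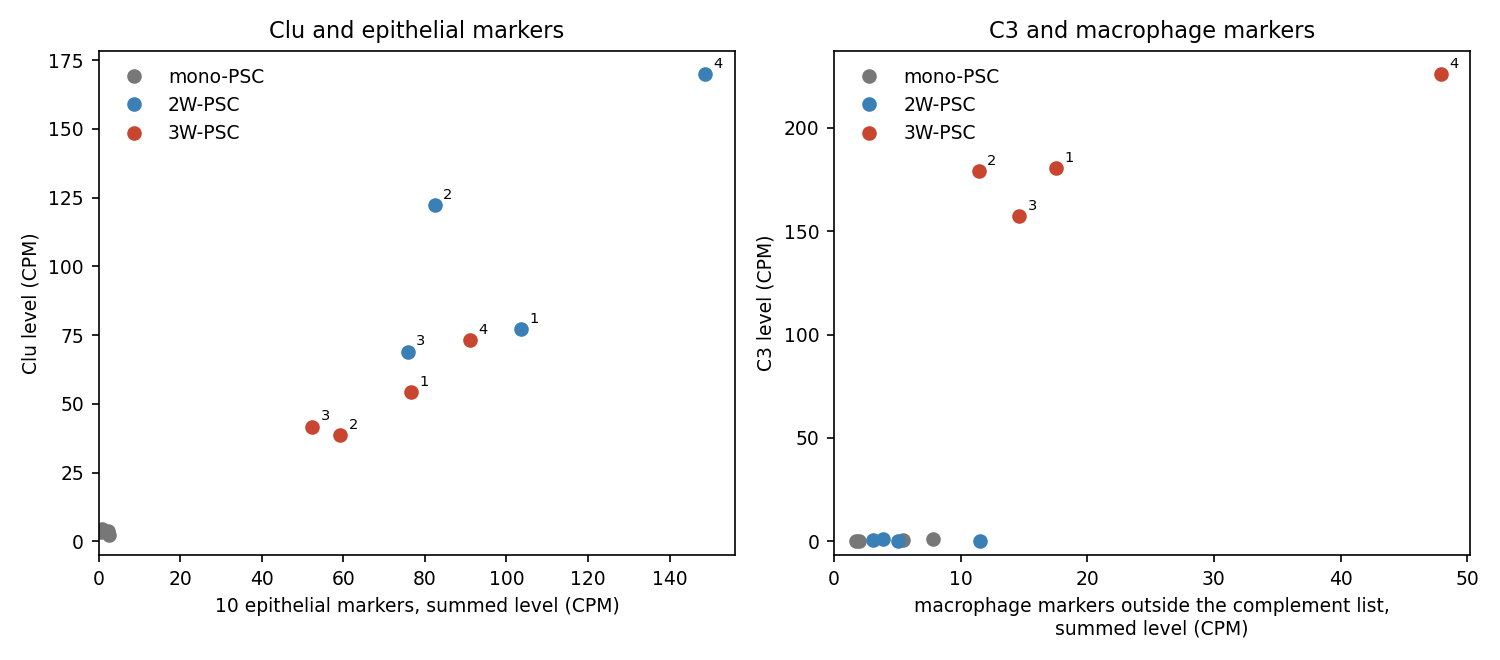
*Clu* against the summed level of 10 epithelial markers (left) and *C3* against the summed macrophage markers outside the complement list (right), both in CPM on linear axes, 1 point per library, with replicate numbers beside the co-culture points (left) or the 3W-PSC points (right). *Clu* was highest where epithelial markers were highest, and *C3* was 157 to 226 CPM in 3W-PSCs over macrophage sums of 11.5 to 47.9 CPM.

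*Cr1l* encodes Crry, a rodent membrane inhibitor of the C3 convertases. It measured 68.2 ± 16.3 CPM for mono-PSCs, 66.4 ± 21.1 CPM for 2W-PSCs and 34.8 ± 4.38 CPM for 3W-PSCs (SD, n = 4), and every 3W-PSC library lay below all others. The log2 fold change was -0.98 (SE 0.189, edgeR adjusted p = 0.000980) in 3W-PSCs against mono-PSCs. Against 2W-PSCs it was -0.93 (SE 0.233, edgeR adjusted p = 0.0285), a call that was lost without any single library other than 2W-PSC replicates 1 and 2, with adjusted p over all 14 alternatives from 0.000585 to 0.106. *Masp1*, a lectin pathway protease, was at 2.73, 7.39 and 1.87 CPM on average, and *Cfp*, which encodes properdin, at 1.95, 1.98 and 1.62 CPM. Neither was called in any of the 3 comparisons (edgeR adjusted p from 0.0532 to 0.999), though in 3W-PSCs against 2W-PSCs the adjusted p of *Masp1* ran from 0.00910 to 0.169 over 13 alternatives and fell under 0.05 in 4 of them, among them the fit without 2W-PSC replicate 3. Of these 4 genes, *Clu* and *Cr1l* were thus called lower in 3W-PSCs against 2W-PSCs, *Clu* higher and *Cr1l* lower against mono-PSCs, and *Clu* higher in 2W-PSCs against mono-PSCs.

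Summed over the 53 genes, complement transcripts came to 174 to 234 CPM (mono-PSCs), 226 to 356 CPM (2W-PSCs) and 454 to 614 CPM (3W-PSCs), without overlap between 3W-PSCs and the rest. In mono-PSCs the counts were mostly of *Cr1l* (33.3 ± 4.93%), *C1ra* (33.1 ± 3.76%) and *C1s* (22.8 ± 8.12%). In 2W-PSCs *Clu* took 38.9 ± 11.7% and *Cr1l* 24.0 ± 6.91%, and *C1ra* and *C1s* made up 14.1 ± 2.41% and 10.9 ± 6.67%. In 3W-PSCs *C3* took 35.8 ± 1.07%, *C1s* 22.6 ± 2.61%, *C1ra* 16.8 ± 1.005% and *Clu* 9.89 ± 1.76% (SD, n = 4 each). Although the level of *C3* varied from 157 to 226 CPM among 3W-PSC libraries, its share of complement counts stayed between 34.6% and 36.8%. Per count of *C1ra* there were 1.93 to 2.26 counts of *C3* in 3W-PSCs, against 0.00461 to 0.0232 in the other cultures.

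**Figure D4:**
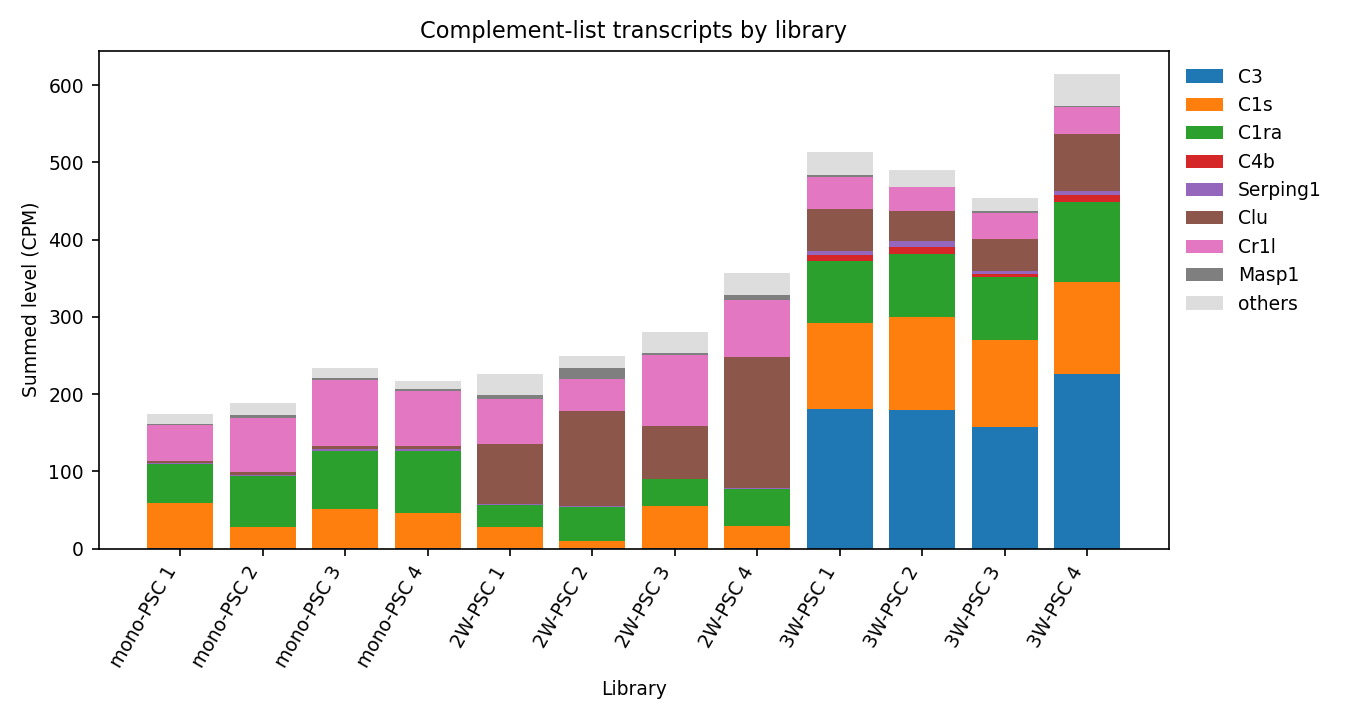
Summed level of the 53 complement genes in each of the 12 libraries (CPM, stacked bars from 0), divided by gene. *Cr1l*, *C1ra* and *C1s* made up most of the mono-PSC bars, *Clu* was added in 2W-PSCs, and *C3* was the largest part of all 3W-PSC bars.

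For each member with counts, the 3 genes outside the list with the most similar log2 CPM over the 12 libraries were sought among 11765 genes, as a description of shared pattern across 3 cultures. *C3* was closest to *Clec4e* (Pearson's r = 0.988), *Serpina3g* (0.988) and *Cxcl11* (0.986), and *C4b* to *Lbp* (0.995), *Serpina3g* (0.988) and *Cybb* (0.988), where n = 12 libraries throughout. All 5 were near 0 outside 3W-PSCs. *Lbp*, which encodes the lipopolysaccharide-binding acute phase protein, measured 8.63, 11.0, 4.58 and 8.44 CPM in 3W-PSCs. *Cybb* and *Clec4e*, known best from phagocytes, measured 8.37, 8.44, 4.07 and 4.29 CPM and 2.39, 1.73, 1.65 and 1.69 CPM. The part of macrophage RNA in these levels was not tested.

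*C1s* was closest to *Ms4a4d* (r = 0.972), *Sod2* (0.970) and *Abhd4* (0.966). *Sod2*, the mitochondrial superoxide dismutase, averaged 66.8, 43.4 and 205 CPM in mono-, 2W- and 3W-PSCs and like *C1s* was lowest in 2W-PSC replicate 2, at 9.32 CPM. *C1ra* was closest to *Ly6a* (r = 0.915), *Ly6c1* (0.911) and *Psmd2* (0.901), and the surface antigen gene *Ly6a* averaged 70.1, 34.3 and 199 CPM. *Serping1* followed *Xdh* (0.928), *Lrba* (0.928) and *St3gal2* (0.920). *Cd59a* followed *Phf14* (0.916), *Cenpq* (0.887) and *Tma7* (0.866), and *Cd55*, with few counts, *Oma1* (0.844), *Atp6v0a2* (0.815) and *Stard3nl* (0.793). *C3* and *C4b* shared *Serpina3g*, and the other members shared none of these genes.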

How the data were processed

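RNA of PSCs sorted on mCherry was measured in 12 libraries, 4 each of mono-, 2W- and 3W-PSCs. The authors prepared QuantSeq 3′ FWD libraries, read single ends of 75 bases, and used FastQC, STAR, GRCm38 and featureCounts per the labels. The deposited values are whole-number counts per gene without normalisation, and molecular identifiers are not named in the sources used here, so intervals and floors cover counting error only. Every column was matched to a sample by the sample number in its name and the titles.

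Library sizes were scaled by TMM in edgeR 4.0.16 (R 4.3.3). Each comparison held its 8 libraries, with filterByExpr, glmQLFit and glmQLFTest, no block, a prior count of 0.125, and Benjamini-Hochberg adjustment over all genes tested. A gene was called at an adjusted p under 0.05. The SE was taken from the fold change and its F statistic. Likeness was computed on log2 CPM (prior count 2). The fits were tested on simulated data. The members and the gene lists were chosen with earlier results of these data known. Named are the 8 members, their paralogues, the complement genes past the filter and the 3 genes most like each member, and the 40 others are given as counts. Of the complement genes past the filter, 1 is not reported here by value. *C1q*, *C2*, *C3ar1*, *Cfd* and the terminal components were named after their values were seen. Positions came from GENCODE M21 (GRCm38) and promoters from RefSeq (GRCm38.p6). Shared 75-base windows were sought in the last 500 bases of transcripts. The featureCounts settings for shared reads are not given in the sources used here. A second, all-0 row of *Cr2* was left out. Alternatives were leaving out each library in turn, DESeq2 1.42.0, DESeq2's size factors within edgeR, a replicate block, 1 fit of all 12 libraries, and either no filter or at least 10 counts per library.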

Additional observations from a re-analysis of the deposited data

Results flagged for a closer look

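Among the 35 groups of 4 libraries in which members and other fitted complement genes were examined, 5 held a library far from the other 3 by Dixon's criterion. The criterion is set for about 1 in 20 groups by chance, a rate that does not hold for counts near 0. A library with any count beside 3 with none always meets it, as for *C4b* and *Cd55* below. The 5 are thus not set against that rate. *C1ra* was 104 CPM in 3W-PSC replicate 4 against 79.8 to 81.9 CPM in the other 3W-PSC libraries. *Cd59a* was 1.59 CPM in 3W-PSC replicate 1, where the other 3 had 0 to 0.127 CPM, and 0.363 CPM in mono-PSC replicate 4, where the other 3 had 2.74 to 3.20 CPM. *Cd55* was 0.242 CPM in mono-PSC replicate 4, from 2 counts, and *C4b* was 0.196 CPM in mono-PSC replicate 2, from 1 count, where the other mono-PSC libraries had none. 3W-PSC replicate 4 also had the highest macrophage marker sum, at 57.7 CPM, and the part of that in its *C1ra* level was not tested.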

How the results depend on the processing

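Members called in 3W-PSCs against 2W-PSCs numbered 5 and, against mono-PSCs, 4. With 10 counts required in every library they numbered 2 and 1, since *C3*, *C4b* and *Serping1* then left the test in the first and *C1s* alone was called in the second. With all 12 libraries in one fit 1 member, *C1ra*, was called in 2W-PSCs against mono-PSCs. With one library left out in turn, 5 to 6, 3 to 5 and 0 to 0 members were called in the 3 comparisons. Over all genes the same fits called 497 to 2107, 2228 to 4266 and 61 to 233. Against mono-PSCs, *Serping1* was not called without 3W-PSC replicate 2. *Cd59a* was called lower without 3W-PSC replicate 1 in both comparisons, and against mono-PSCs also without mono-PSC replicate 4, without a filter and with the block.

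Other complement genes called in 3W-PSCs against 2W-PSCs numbered 2, of 5 fitted, and 0 to 2 with 1 library left out. DESeq2, run without filterByExpr, called 5 (*C1s2*, *Masp1*, *Clu*, *Cr1l*, *C3ar1*). It also called more genes over the whole table, 1808 against 1230. Against mono-PSCs there were 3, but 5 without a filter, 5 by DESeq2 and 3 to 5 with one library left out. In 2W-PSCs against mono-PSCs there was 1, but 2 without a filter, with all 12 libraries and by DESeq2, and 1 to 2 with one library left out. Over all genes, 1230, 3054 and 111 were called. The last became 177 without a filter, 57 with 10 counts everywhere, 262 with all 12 libraries and 275 by DESeq2. Leaving out one library gave 497 to 2107, 2228 to 4266 and 61 to 233, the 2107 and 233 coming without 2W-PSC replicate 2.

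With the replicate number as a block, 752 genes and 1 other complement gene (*Clu*) were called in 3W-PSCs against 2W-PSCs, and *Cr1l* was not (edgeR adjusted p = 0.0543). Deviations of same-numbered libraries correlated from -0.0477 to 0.155, from 0.00224 to 0.107 and from 0.0989 to 0.338, and 2, 2 and 3 of 4 numbers correlated best with their own. The labels tie the numbers to no shared culture or day, and in no comparison did all 4 correlations exceed 0.1, the last falling just short at replicate 4, so the numbers were not taken as pairs.

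Small log2 fold changes reversed. With one library left out, those of *Cfp* lay from -0.505 to 0.206 in 3W-PSCs against 2W-PSCs, from -0.487 to 0.0290 in 3W-PSCs against mono-PSCs and from -0.453 to 0.202 in 2W-PSCs against mono-PSCs, and in the last comparison those of *Cd59a* lay from -0.337 to 0.507 and those of *Cr1l* from -0.226 to 0.129. The reversed values of *Cfp* were 0.206 and 0.0129 in 3W-PSCs against 2W-PSCs without 2W-PSC or 3W-PSC replicate 3, 0.0290 against mono-PSCs without 3W-PSC replicate 3, and in 2W-PSCs against mono-PSCs -0.0768 with the block and -0.0608, -0.453 and -0.00331 without mono-PSC replicate 2, 2W-PSC replicate 3 and mono-PSC replicate 4. In that comparison *Cd59a* was -0.337 and -0.159 without 2W-PSC replicate 1 and mono-PSC replicate 4, and *Cr1l* 0.0194, 0.129 and 0.105 without 2W-PSC replicate 1, 2W-PSC replicate 2 and mono-PSC replicate 3. Of the 21 most similar genes, 7 were also found by Spearman's correlation and 9 without 2W-PSC replicate 2. Where no cause is given, the cause was not tested. *Cd55*, *Cfb* and 40 of the other complement genes had too few counts to be fitted.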

Other observations

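mono-PSC replicate 2 was the only mono-PSC library with a count of *C4b*, and it likewise held the single mono-PSC count of *Lbp*, *Serpina3g*, *Cybb* and *Cxcl11*, genes which had 114 to 370 counts in 3W-PSCs. These genes were picked for their likeness to *C4b* or *C3* over the same 12 libraries, so a shared pattern is partly built in. mono-PSC replicate 2 also had 6 of the 15 mono-PSC counts of *C3*. Among the sparse complement genes, *Cr2*, the receptor for C3d on B cells, had 90 counts over the 12 libraries, and *C8g* had 61, although the partners of the latter, *C8a* and *C8b*, had none. *Colec10* and *Colec11*, which encode soluble collectins of the lectin pathway, had 26 and 29 counts. These genes were named after their values were seen.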
